A study of Mus musculus with 24 samples.

Results

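The endoplasmic reticulum (ER) chaperones described here are 10 genes of the protein folding machinery inside the ER: Hspa5, Hsp90b1, Hyou1, Dnajb9, Dnajc3, Calr, Pdia3, Pdia4, Pdia6 and Xbp1. They were chosen by gene symbol as the chaperones, and 1 transcription factor, of the ATF6 and XBP1 arm of the unfolded protein response. All 10 were found among the 18669 genes of the count table, and all 10 passed the filter on low counts that left 13754 genes for testing. RNA came from the quadriceps femoris muscle of 24 mice, 2 mice in each of 12 groups. Wild type and R6/2 mice were 12 weeks old. Hsf1-/- mice were 10 weeks old in the heat shock experiment and 8 weeks old in the HSP990 experiment, so genotype and age cannot be told apart where they are set against wild type mice. R6/2 mice carry a transgene for exon 1 of mutant huntingtin and are a model of Huntington's disease, and Hsf1-/- mice lack the heat shock transcription factor HSF1. All mice are labelled with the CBA x C57BL/6 F1 background. Heat shocked mice (HS) were anesthetized and kept at 41.5 °C for 15 minutes, and their controls were anesthetized and kept at 36.9 °C for 21 minutes. The other mice received 12 mg/kg of the HSP90 inhibitor HSP990, or vehicle, which the labels give as a saline solution. Muscle was taken 4 hours after treatment in every group.

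The ER folds secreted and membrane proteins with its own set of chaperones, separate from those of the cytosol. When unfolded protein builds up in the ER, the sensors ATF6, IRE1 and PERK start the unfolded protein response: cleaved ATF6 and spliced XBP1 act on the promoters of ER chaperones, and PERK signals through ATF4 and CHOP. HSF1 drives the chaperones of the cytosol and nucleus. HSP990 inhibits HSP90 proteins, a family to which the ER protein encoded by Hsp90b1 (GRP94) belongs. The comparisons asked which genes respond to heat and to HSP90 inhibition, and how far the response depends on HSF1 or differs in R6/2 mice.

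Promoter sequences are shown because the members were grouped by the regulators thought to act on them. Sequences upstream of the gene start were taken from RefSeq (GRCm38.p6) for 9 of the 10 members, 250 bases before to 50 bases after the start. The ER stress response element (ERSE, CCAAT and CCACG with 9 bases of any kind between them) was found on either strand in 5 of these 9 promoters (Hspa5, Hsp90b1, Calr, Pdia6 and Dnajc3) and in 39 of 32851 promoters in all, 0.119%. The unfolded protein response element (UPRE, TGACGTGG or TGACGTGA) was found in Hspa5 alone among the 9 and in 1.12% of all promoters. The ERSE-II motif (ATTGG and CCACG with 1 base between them) was found in 0 of the 9 and in 0.0365% of all promoters. A match is a description of letters and does not show that a factor binds there. Because the members were chosen as genes of the ATF6 and XBP1 arm, their share with ERSE is no independent test. Capitals mark the CCAAT and CCACG of each ERSE, written ATTGG and CGTGG where the motif lies on the other strand, and the UPRE of Hspa5. In the Pdia3 window, shown because Pdia3 is the member that rose after HSP990, the capitals mark 2 CCAAT runs that stand without CCACG at that distance. The windows are given 5′ to 3′ on the strand of the gene.
Hspa5, chr2:34771840-34772059, plus strand: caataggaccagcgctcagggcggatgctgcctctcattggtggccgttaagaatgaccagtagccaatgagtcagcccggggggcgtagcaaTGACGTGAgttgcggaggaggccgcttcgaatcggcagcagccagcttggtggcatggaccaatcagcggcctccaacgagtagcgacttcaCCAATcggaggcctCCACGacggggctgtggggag
Hsp90b1, chr10:86705525-86705669, minus strand: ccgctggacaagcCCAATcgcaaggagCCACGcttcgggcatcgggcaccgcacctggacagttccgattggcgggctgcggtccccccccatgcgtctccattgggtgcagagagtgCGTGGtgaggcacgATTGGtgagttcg
Calr, chr8:84847047-84847106, minus strand: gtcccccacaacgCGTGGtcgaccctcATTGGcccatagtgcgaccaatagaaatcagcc
Pdia6, chr12:17266469-17266528, plus strand: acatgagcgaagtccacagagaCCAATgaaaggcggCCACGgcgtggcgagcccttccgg
Dnajc3, chr14:118937807-118937866, plus strand: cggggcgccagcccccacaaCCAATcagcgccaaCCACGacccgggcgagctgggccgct
Pdia3, chr2:121413802-121413891, plus strand: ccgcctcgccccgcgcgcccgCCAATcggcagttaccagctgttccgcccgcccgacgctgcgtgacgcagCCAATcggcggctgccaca
The ERSE of Hspa5 lies 65 to 47 bases before the gene start and its UPRE 157 to 150 bases before it. Hsp90b1 holds 2 ERSE matches on opposite strands.

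Library totals ran from 22450177 to 46599238 counts. Levels are given in CPM, the usual unit of a gene's counts scaled by the library total, here with the total adjusted by the TMM method, and CPM per kb of exon is used wherever genes are compared with each other. The targeted gene Hsf1 was at 21.1 to 29.0 CPM in the 8 Hsf1-/- mice and at 52.9 to 68.5 CPM in the 8 wild type mice, with no overlap, so reads of the gene were still counted in the knockouts. In R6/2 mice 14.7 to 21.9% of all counts fell on the 20 genes with most counts, and in the other genotypes at least 32.7% did. Counts of 4 Y-linked genes summed to 0 to 4 in the wild type and R6/2 mice of the HS experiment and to 3916 to 9392 in all other mice. The sexes counted this way therefore differ between wild type and knockout mice of the HS experiment, and between the HS and HSP990 experiments within wild type and within R6/2. The muscle fiber markers Acta1, Ckm, Mylpf, Tnnt3, Myh4 and Des summed to at least 37898 CPM in every library. In bulk muscle, fewer cells of a type and less RNA per cell cannot be told apart.

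All members were well expressed, with at least 276 counts in every library. Calr, which encodes the calcium-binding lectin chaperone calreticulin, had the highest level per length, with a median of 72.7 CPM per kb over the 24 libraries (range 60.7 to 86.2). Hsp90b1 (37.9, range 29.9 to 54.1), Hspa5 (33.9, range 23.2 to 47), Dnajb9 (30.4, range 18.2 to 44.2) and Xbp1 (29.3, range 19.2 to 48.1) followed in CPM per kb. These 4 overlapped widely, and neighbors in their order do not differ beyond their spread. Pdia3 had a median of 22.9 CPM per kb, Pdia6 of 14.0 and Pdia4 of 7.92, and the ranges of these disulfide isomerases were 18.2 to 29.6, 10.8 to 18.8 and 5.32 to 10.7, with an overlap between Pdia3 and Pdia6. Dnajc3 (3.72 CPM per kb) and Hyou1 (3.26 CPM per kb) were lowest and overlapped. The range of Calr lay wholly above that of every other member.

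The members varied little over the 12 groups. The ratio of the highest to the lowest group mean was 1.24 for Hyou1 and 1.27 for Calr, the steadiest members, and 2.06 for Dnajb9 and 2.0 for Xbp1, the most variable. The same ratio was 3.91 for Hsp90ab1 and 2810 for Hspa1b, the ends of the range of 10 cytosolic chaperones measured in the same libraries. In TMM-scaled CPM, the lowest group of Hspa5, Dnajb9 and Xbp1 was R6/2 after HSP990. The highest group of all 3 was wild type after HS. These places may depend on the scaling, and groups were not ranked with library size only. In untreated mice, the averaged log2 fold changes of these 3 in R6/2 against wild type changed sign between the scalings. They were -0.36, -0.57 and -0.55 with TMM and 0.25, 0.04 and 0.06 with library size only.

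**Figure D1:**
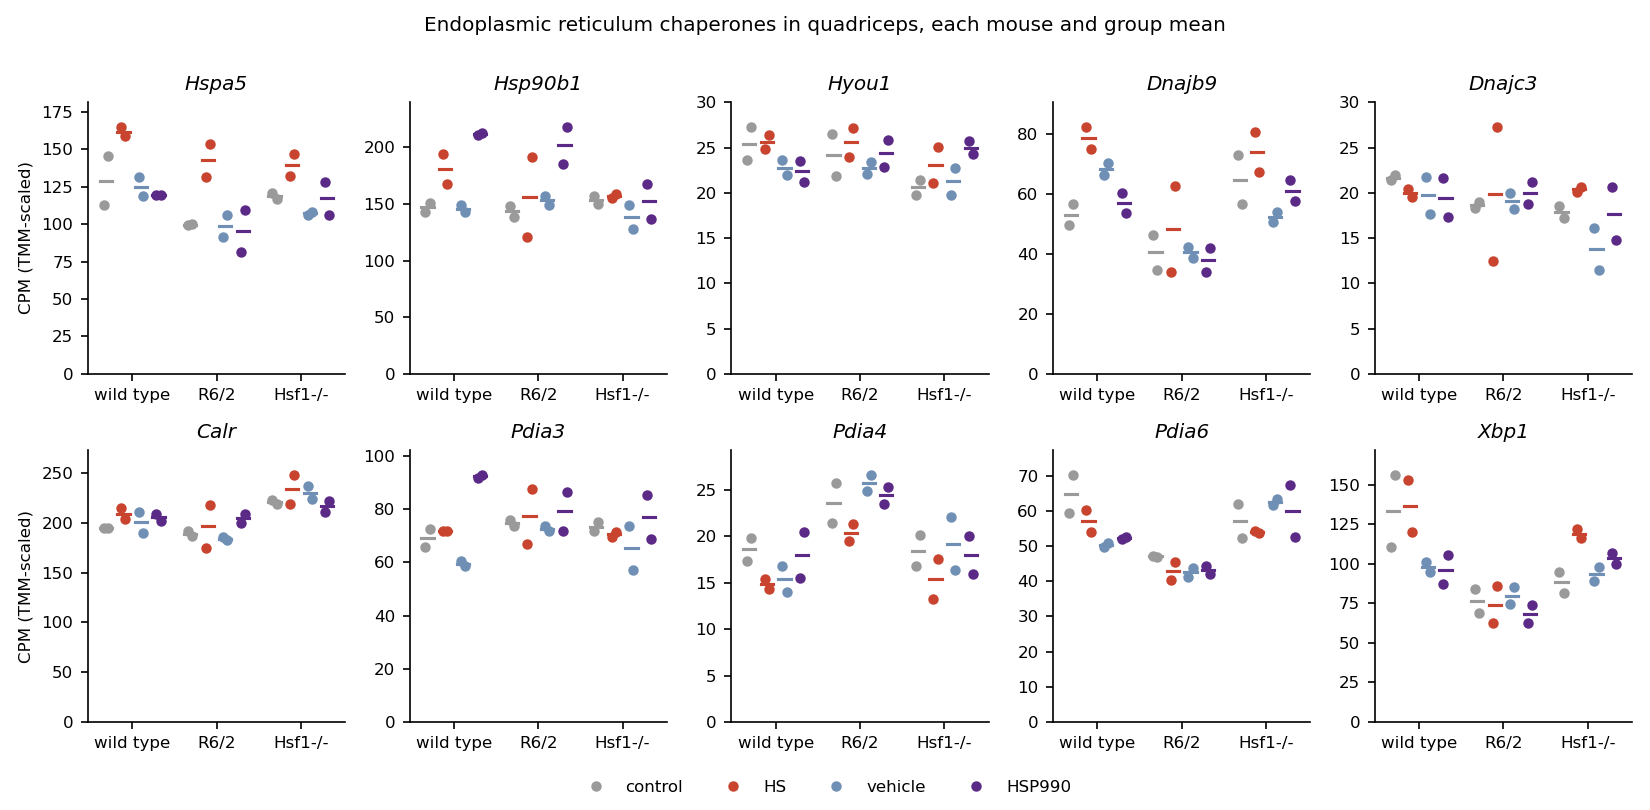
TMM-scaled CPM (vertical axis) of the 10 members in each mouse (points, 2 per group) with the group mean (bar), by genotype (horizontal axis) and treatment (color). Pdia3 in wild type mice after HSP990, at 91.9 and 92.9 CPM, lies clear of the vehicle mice, at 60.5 and 58.7 CPM, while most other treated and untreated groups overlap or lie close.

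None of the 10 members passed the test after HS in wild type mice, where 2.06% of all genes tested did. Hspa5 encodes BiP, the HSP70 protein of the ER. It was at 112.5 and 145.6 CPM in wild type control mice and at 165.0 and 158.6 CPM after HS. The HS mice were both above the control mice, with a log2 fold change of 0.33 ± 0.15 (SE, 95% interval 0.01 to 0.64, adjusted p = 0.4). In R6/2 mice Hspa5 was at 99.2 and 100 CPM in controls and at 131.3 and 153.8 CPM after HS, a log2 fold change of 0.52 ± 0.15 (interval 0.20 to 0.83). Its unadjusted p there was 0.003 and its adjusted p 0.25. In Hsf1-/- mice the controls were at 120.5 and 117.0 CPM and the HS mice at 131.9 and 147.0 CPM, with a log2 fold change of 0.23 (interval -0.08 to 0.55). Hspa5 was thus higher in both HS mice than in both controls of each genotype, but in no genotype past the threshold.

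Dnajb9 encodes an ER J protein that works with BiP. It was at 49.6 and 56.6 CPM in wild type controls and at 82.4 and 75.0 CPM after HS, a log2 fold change of 0.57 (interval 0.10 to 1.03, adjusted p = 0.27). In R6/2 mice after HS the values lay far apart, at 34.0 and 62.8 CPM. The same R6/2 mouse was the lower of the pair for all 10 members, for instance at 12.5 against 27.3 CPM for Dnajc3, an inhibitor of PERK and J protein of the ER, and at 120.5 against 191.8 CPM for Hsp90b1. Xbp1 in Hsf1-/- mice was at 95.2 and 81.5 CPM in controls and at 121.9 and 116.6 CPM after HS, a log2 fold change of 0.43 (interval 0.04 to 0.82, adjusted p = 0.49). Gene counts do not separate spliced from unspliced Xbp1, so the active form was not measured.

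After HS, 0 of 10 members were called in R6/2 mice and 0 of 10 in Hsf1-/- mice, where 0.0436% and 0.00727% of all genes were called. At an unadjusted p under 0.05 there were 2 members in wild type, 1 in R6/2 and 1 in Hsf1-/- mice, and DESeq2 called 0 in each. Over the 3 genotypes the members' log2 fold changes ran from -0.32 to 0.57, with medians of 0.04, 0.07 and 0.13, against -0.01, 0.00 and 0.00 over all genes. The widest 95% interval in wild type mice, that of Dnajc3, reached from -0.67 to 0.44, so a change of that size would not have been told from none.

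Pdia3, which encodes the disulfide isomerase ERp57 that folds glycoproteins with calreticulin and calnexin, was the 1 member that passed the test after HSP990 in wild type mice, where 1.85% of all genes did. It was at 60.5 and 58.7 CPM with vehicle and at 91.9 and 92.9 CPM with HSP990. The groups did not overlap, and the log2 fold change was 0.63 ± 0.15 (interval 0.33 to 0.94, a 1.55-fold rise, adjusted p = 0.035). The call needed all 4 mice: without any 1 of them the log2 fold change was 0.61 to 0.66 and the adjusted p 0.13 to 0.33. Hsp90b1 was at 149.1 and 142.8 CPM with vehicle and at 210.8 and 213.1 CPM with HSP990, a log2 fold change of 0.54 ± 0.17 (interval 0.19 to 0.89). Its groups did not overlap either, but its adjusted p was 0.12. The other 8 members had log2 fold changes of -0.27 to 0.23, among them Hspa5 at -0.06 (interval -0.38 to 0.25).

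Markers of other cell types moved with this comparison. All 6 fibroblast markers were higher after HSP990 in wild type mice (median log2 fold change 0.86, 0 called by edgeR and 1 by DESeq2), and their summed level was 947.6 to 986.0 CPM with vehicle and 1665 to 1666 CPM with HSP990. All 6 macrophage and leukocyte markers were higher (median 0.77, 1 called), with summed levels of 38.4 to 40.6 and of 63.0 to 86.6 CPM. Endothelial markers summed to 310.0 to 396.6 and to 478.1 to 536.4 CPM. No fibroblast, leukocyte or endothelial marker was at 0 in any library. Their part in the values of Pdia3 and Hsp90b1 was not tested. Plasma cells, which are rich in ER chaperones, had markers that summed to 3.62 to 6.95 CPM over all 24 libraries, with Jchain at 0 in 4 libraries, Cd79a in 8 and Tnfrsf17 in 12. Adipocyte markers spanned 206.6 to 2014 CPM and satellite cell markers 26.6 to 61.2 CPM.

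In R6/2 mice HSP990 gave 0 called members, against 1.43% of all genes, and in Hsf1-/- mice 0, against 0.218%. At an unadjusted p under 0.05 there was 1 member in R6/2 and 0 in Hsf1-/- mice, and DESeq2 called 0 in both. Hsp90b1 in R6/2 mice was at 157.4 and 149.5 CPM with vehicle and at 185.3 and 218.1 CPM with HSP990, a log2 fold change of 0.39 (interval 0.05 to 0.74, adjusted p = 0.43). Both treated mice were above both vehicle mice. In Hsf1-/- mice it was at 149.3 and 127.9 CPM with vehicle and at 167.6 and 137.1 CPM with HSP990, and these groups overlapped. Pdia3 overlapped between vehicle and HSP990 in R6/2 mice (73.8 and 71.7 against 72.0 and 86.7 CPM) and in Hsf1-/- mice (73.7 and 57.1 against 85.5 and 69.0 CPM). That Pdia3 was called in 1 genotype does not show that the genotypes differ. The test of the difference called 0 members, but it called only 0.0% of all genes for R6/2 and 0.422% for Hsf1-/- mice. This count therefore does not show that the genotypes are alike. The response of Pdia3 differed from that in wild type by -0.51 in R6/2 (interval -0.94 to -0.08, adjusted p = 0.63). In Hsf1-/- mice it differed by -0.39 (interval -0.82 to 0.04, adjusted p = 0.76).

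**Figure D2:**
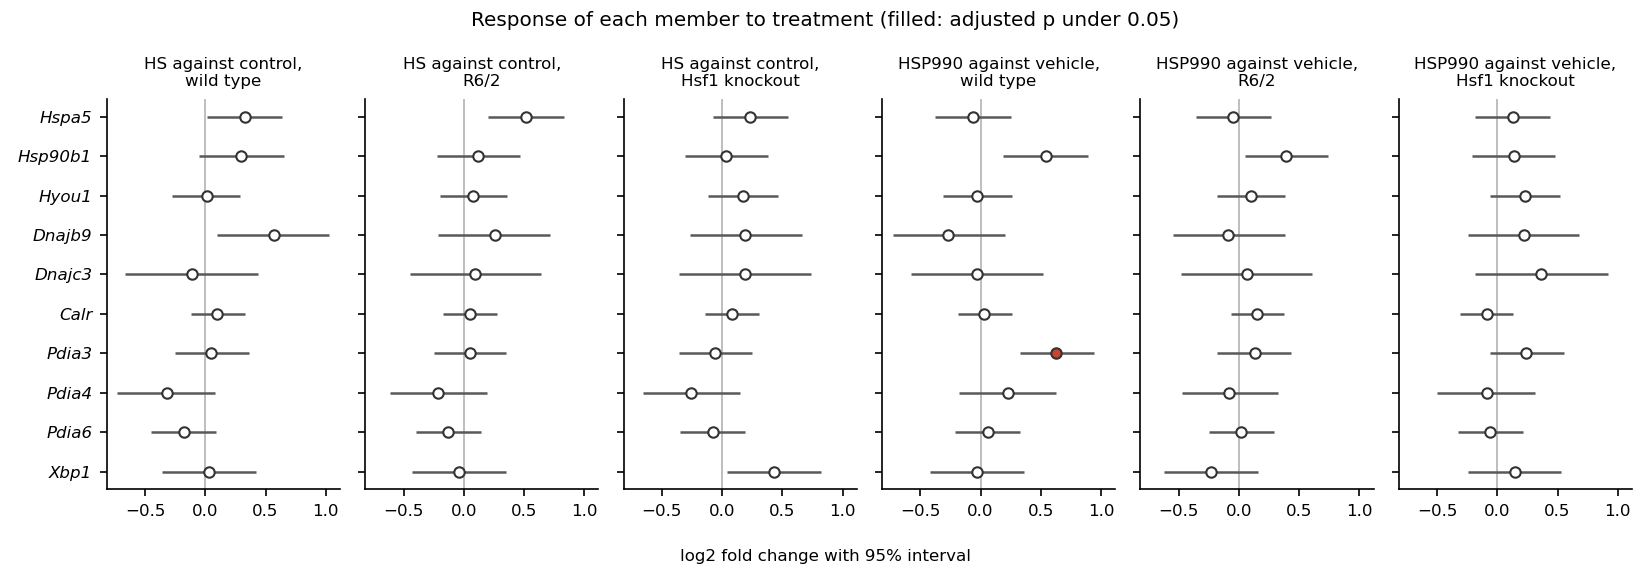
Log2 fold change of each member (horizontal axis, with its 95% interval) in the 6 comparisons of treated with untreated mice; filled points passed an adjusted p of 0.05. The filled point is Pdia3 in wild type mice after HSP990, at 0.63, and nearly all other intervals include 0.

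Responses were compared between genotypes and between treatments in the same fit. The number of members whose HS response differed from that of wild type was 0 in R6/2 (0.0727% of all genes) and 0 in Hsf1-/- mice (0.16%). For HSP990 it was 0 in R6/2 (0.0% of all genes) and 0 in Hsf1-/- mice (0.422%). The HS response differed from the HSP990 response for 0 members in wild type (2.38% of all genes), 0 in R6/2 (1.63%) and 0 in Hsf1-/- mice (0.145%). DESeq2 also called 0 members in each of these 7 comparisons. At an unadjusted p under 0.05 there were 2 members in HS against HSP990 in wild type, 1 in the same comparison in R6/2 and 1 in the HSP990 response of R6/2 against wild type. The Y-linked counts differ between the 2 experiments in wild type and R6/2 mice. They also differ between Hsf1-/- and wild type mice of the HS experiment. Their part was not tested.

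The treatments acted on the same libraries. Hspa1a, a heat-inducible HSP70 of the cytosol, was at 3.37 and 11.1 CPM in wild type controls and at 960.9 and 1063 CPM after HS. Dnajb1, its HSP40 partner, was at 9.4 and 11.8 CPM with vehicle and at 326.9 and 315.0 CPM with HSP990 in wild type mice. Of 10 cytosolic chaperones, 9 rose after HS in wild type mice (median log2 fold change 2.68), 3 in R6/2 (0.98) and 0 in Hsf1-/- mice (0.14). After HSP990, 9 rose in wild type (median 3.59), 9 in R6/2 (2.35) and 0 in Hsf1-/- mice (0.15). In Hsf1-/- mice 0 of the 10 had an unadjusted p under 0.05 after HS and 1 after HSP990, and DESeq2 called 0 in both. The corresponding medians of the ER chaperones were 0.00, 0.04 and 0.14. Hspa1a and Hspa1b are near-identical copies, so their reads may be split between them.

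Within the ER, 1 other folding gene responded. Serpinh1 encodes HSP47, the collagen chaperone, and it rose after HS in wild type (log2 fold change 1.83, adjusted p = 0.0015) and after HSP990 in wild type (2.90, adjusted p = 9.7e-06) and in R6/2 mice (1.93, adjusted p = 0.001). It was the 1 gene called of 40 ER folding genes in each of these 3 comparisons, and 0 of the 40 were called in the other 3, where 0 to 2 had an unadjusted p under 0.05. DESeq2 also called Serpinh1 after HS in R6/2 mice and Rcn1 after HSP990 in wild type mice. Of 19 genes of ER-associated degradation, 24 of ER import and export, and 12 sensors and processing factors of the unfolded protein response, 0 were called by edgeR in any of the 6 treatment comparisons, with at most 3 genes of a list at an unadjusted p under 0.05. DESeq2 called 1 import and export gene after HS in wild type, 1 after HS in Hsf1-/- mice and 0 in the other comparisons of these lists. One of 25 import and export genes found in the table did not pass the filter on low counts.

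The ATF4 and CHOP arm, which several stresses besides ER stress can switch on, was different in Hsf1-/- mice after HSP990. Of 13 tested genes, 4 rose (6 by DESeq2), with a median log2 fold change of 2.07 over the 13. Trib3, a pseudokinase target of CHOP, was at 1.04 and 2.57 CPM with vehicle and at 65.6 and 143.3 CPM with HSP990 (log2 fold change 5.84, adjusted p = 4.2e-06). Sesn2, a stress-induced inhibitor of mTORC1 signaling, was at 4.10 and 3.78 CPM with vehicle and at 57.2 and 92.4 CPM with HSP990 (4.25, adjusted p = 8e-07). Ddit3, which encodes CHOP, rose by a log2 fold change of 2.78 and Psat1, an enzyme of serine synthesis, by 2.31. In the same 4 mice Hspa5 was at 106.0 and 108.4 CPM with vehicle and at 128.4 and 106.1 CPM with HSP990, and the groups overlapped. The lists are described by their counts and medians, and no test compared the lists with each other.

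**Figure D3:**
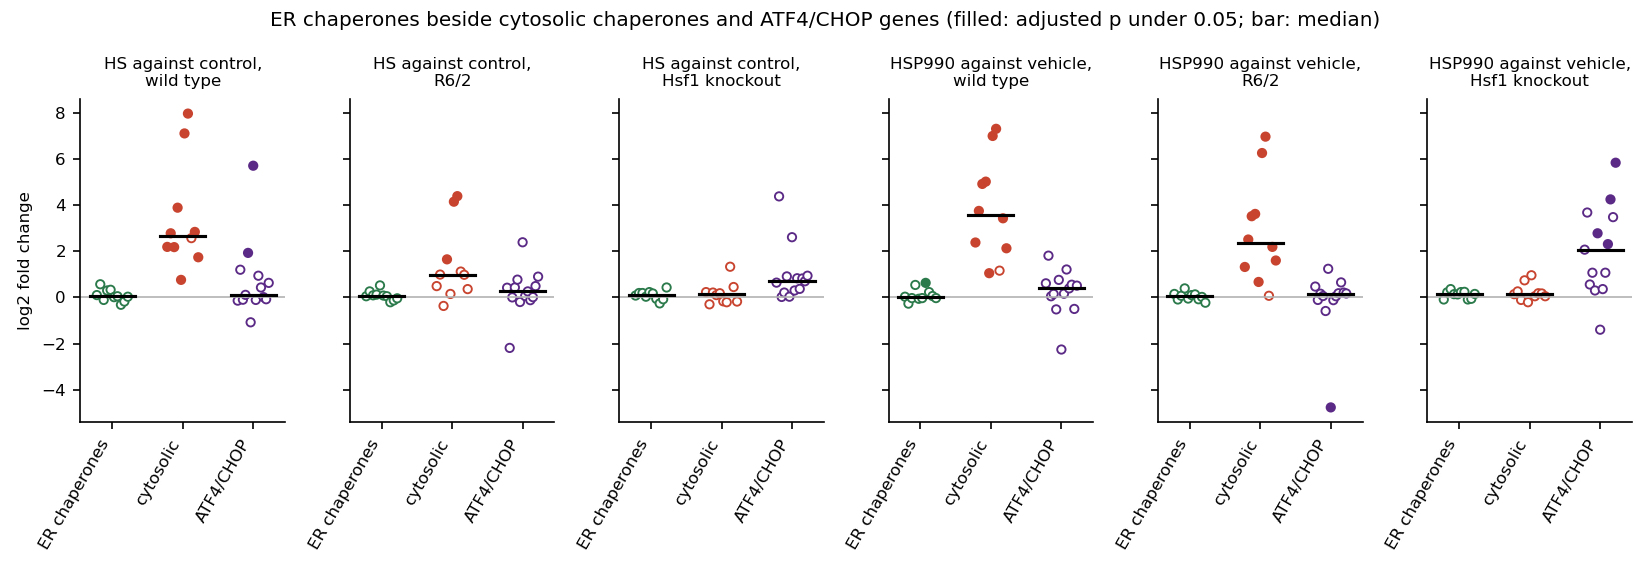
Log2 fold change (vertical axis) of single genes in the 6 treatment comparisons for the 10 ER chaperones, 10 cytosolic chaperones and 13 tested genes of the ATF4 and CHOP arm; filled points passed an adjusted p of 0.05 and bars are medians. The ER chaperones stay close to 0 in all 6 panels, the cytosolic chaperones have medians of 2.68 and 3.59 in wild type mice, and the ATF4 and CHOP genes have a median of 2.07 in Hsf1-/- mice after HSP990.

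With TMM scaling, untreated R6/2 mice differed from wild type mice in single members, in both directions. Of the 4 calls in control or vehicle mice, that of Pdia6 turned its sign with library size only, and Xbp1, Pdia4 and Dnajb9 kept theirs. Among control mice 2 of 10 members were called, where 12.4% of all genes were. Xbp1, the transcription factor of the IRE1 branch, was at 111.0 and 156.3 CPM in wild type and at 84.0 and 68.7 CPM in R6/2 mice. The groups did not overlap, and Xbp1 fell by 0.81 on the log2 scale (SE 0.18, adjusted p = 0.0094) with TMM but by 0.26 with library size only (adjusted p = 0.26). Pdia6, the disulfide isomerase P5, was at 59.3 and 70.2 CPM in wild type and at 47.2 and 46.9 CPM in R6/2 mice, a log2 fold change of -0.46 ± 0.13 (adjusted p = 0.026) with TMM that was 0.08 with library size only. Without wild type mouse 2 neither was called (adjusted p = 0.14 for Xbp1 and 0.23 for Pdia6), nor without R6/2 mouse 2 (0.063 and 0.075), and without R6/2 mouse 1 Pdia6 was not (0.16).

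Among vehicle mice 2 of 10 members were called, where 19.2% of all genes were. Pdia4, the disulfide isomerase ERp72, was at 16.8 and 14.0 CPM in wild type and at 24.9 and 26.6 CPM in R6/2 mice, and it rose by a log2 fold change of 0.74 ± 0.19 (adjusted p = 0.012). It was higher under library size only as well, and in controls it was at 17.3 and 19.8 against 21.4 and 25.7 CPM (0.34, adjusted p = 0.26 with TMM, and 0.88, adjusted p = 0.0018 with library size only). Dnajb9 was at 66.5 and 70.5 CPM in wild type and at 42.4 and 38.6 CPM in R6/2 mice, a log2 fold change of -0.76 ± 0.22 (adjusted p = 0.023) with TMM and of -0.08 (adjusted p = 0.75) with library size only. Without R6/2 mouse 2 (adjusted p = 0.062) or wild type mouse 2 (0.11) Pdia4 was not called, and leaving out any 1 of the 4 mice ended that of Dnajb9 (adjusted p 0.073 to 0.12).

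The average of the comparisons in control and vehicle mice, added after these values had been seen, called 5 of 10 members, where 30.5% of all genes were called. With TMM, Pdia4 was higher (log2 fold change 0.54, adjusted p = 0.0056), and Xbp1 (-0.55), Dnajb9 (-0.57), Pdia6 (-0.35) and Hspa5 (-0.36) were lower, while with library size only these 4 were at 0.06, 0.04, 0.26 and 0.25. Hspa5 was not called without R6/2 vehicle mouse 1 (adjusted p = 0.07), wild type control mouse 2 (0.1) or wild type vehicle mouse 1 (0.062), and the other 4 stayed under the threshold in all 8 fits without 1 mouse. Calr (-0.08, interval -0.24 to 0.08) and Hyou1 (-0.04, interval -0.24 to 0.16) were not called with TMM, while with library size only both were called, at 0.53 and 0.57, where 64.5% of all genes were called.

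Scaling by library size moved every member by nearly the same amount, by 0.54 to 0.55 in control and by 0.67 in vehicle mice, while the median over all genes tested went from 0.01 to 0.55 in control and from 0.07 to 0.74 in vehicle mice. Under both scalings Pdia4 was highest and Xbp1 lowest in control mice, and Pdia4 was highest and Dnajb9 lowest in vehicle mice. A change of scaling multiplies each library by 1 factor and so shifts all genes nearly alike. That the order stayed the same is therefore no test of it. Beside the medians of all genes given above, the members' median was -0.15 in control and -0.09 in vehicle mice with TMM. With library size only it was 0.40 and 0.59. Which scaling is the better one for R6/2 mice was not tested. RLE size factors called the same numbers of members as TMM. In R6/2 mice 5 of 6 muscle fiber markers were called lower in both comparisons (medians -1.77 and -2.15), and their summed level was 37898 to 79649 CPM against 174987 to 238601 CPM in the other genotypes. All 5 adipocyte markers had log2 fold changes below 0 (medians -1.69 and -1.13), with 0 called in either comparison and 2 in the average, and summed to 334.5 to 339.5 CPM in R6/2 against 535.0 to 1359 CPM in wild type control mice, and to 206.6 to 296.6 against 325.6 to 621.3 CPM in vehicle mice. The fibroblast markers Lum (0.96) and Pdgfra (0.79) and the macrophage marker Lyz2 (0.82) were called higher in R6/2 vehicle mice. The 6 fibroblast markers summed to 1069 to 1098 CPM in R6/2 against 947.6 to 986.0 CPM in wild type vehicle mice. In control mice their sum was lower in R6/2, at 813.2 to 1257 against 1272 to 1527 CPM. The 6 macrophage and leukocyte markers summed to 50.4 to 76.6 against 38.4 to 40.6 CPM in vehicle mice. In control mice they summed to 70.0 to 72.3 against 51.8 to 68.5 CPM. In the average the satellite cell marker Pax7 was higher (0.80) and the plasma cell marker Mzb1 lower (-1.26). Mzb1 was at only 0.123 to 1.19 CPM, and the sum of the 5 plasma cell markers did not move in 1 direction. That sum was 5.04 to 5.57 CPM in R6/2 against 6.01 to 6.25 CPM in wild type control mice. In vehicle mice it was 6.4 to 6.74 CPM in R6/2 against 4.1 to 5.04 CPM in wild type. The part of these markers in the scaling and in the members' values was not tested.

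**Figure D4:**
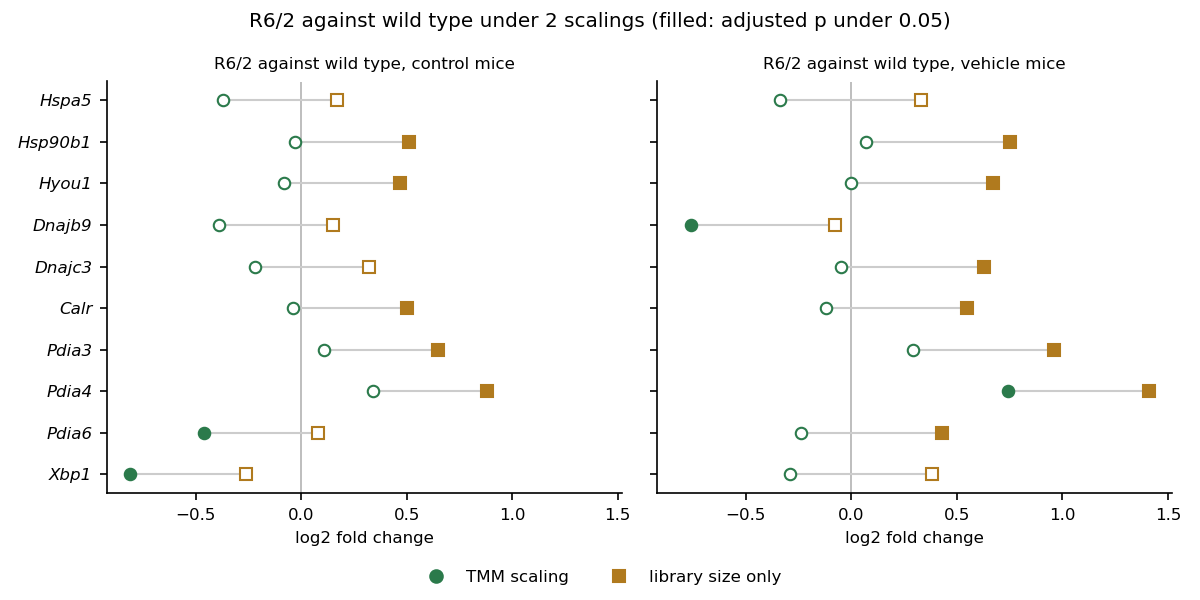
Log2 fold change of each member in R6/2 against wild type mice (horizontal axis) with TMM scaling (circles) and with library size only (squares), in control and vehicle mice; filled symbols passed an adjusted p of 0.05. Every member shifts to the right by about the same distance, 0.54 to 0.55 in control and 0.67 in vehicle mice. A change of scaling shifts all genes nearly alike, so the unchanged order is no test.

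The other ER lists were counted in R6/2 mice beside the share of all genes called, which was 12.4% in control and 19.2% in vehicle mice with TMM, and 43.7% and 55.6% with library size only. Of 40 folding genes, 4 were called in control mice (2 higher, 2 lower) and 2 in vehicle mice (1 higher, 1 lower) with TMM, a smaller share than of all genes, against 19 and 26 higher and 0 lower with library size. Fkbp9, an ER prolyl isomerase, was higher under both scalings (log2 fold change 0.45 and 0.78 with TMM, 0.99 and 1.46 with library size). Fkbp7, of the same family, was called in control mice (1.23 with TMM, 1.76 with library size), and Serpinh1 was called lower there with TMM alone (-1.01, against -0.48 with library size). P4hb, a disulfide isomerase, was at -0.46 and -0.45 with TMM and at 0.08 and 0.22 with library size. Of the 19 degradation genes 1 was called in each comparison with TMM, Ube2g2 higher in control mice (0.57) and Rnf5 lower in vehicle mice (-0.37), while with library size 12 and 17 were called higher. Of 24 import and export genes tested, 8 were lower and 2 higher in control mice, and again 8 lower and 2 higher in vehicle mice, while with library size only 2 were lower and 10 higher, and 1 lower and 14 higher. Sar1b, a GTPase of the vesicle coat that carries cargo out of the ER, was lower under both scalings (log2 fold change -1.50 and -1.85 with TMM, -0.95 and -1.17 with library size). Sec62, a subunit of the import channel complex, was higher under both (0.64 and 0.73 with TMM, 1.18 and 1.40 with library size). Sec61b, another channel subunit, was at -1.59 and -0.59 with TMM and at -1.06 and 0.08 with library size. Hsf1-/- controls were also lower in Sec61b than the same wild type control mice (-1.45 with TMM, adjusted p = 0.0028). Of 12 sensors and processing factors, 2 were called in control and 3 in vehicle mice with TMM, all higher, and 10 and 12 with library size. Among them Atf6 was higher under both scalings (0.67 and 0.49 with TMM, 1.22 and 1.16 with library size), as was Nfya, a subunit of the factor that binds CCAAT (1.08 and 1.15 with TMM, 1.63 and 1.83 with library size).

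In Hsf1-/- against wild type mice 0 of 10 members were called, in controls (1.93% of all genes) and in vehicle mice (0.0872%). At an unadjusted p under 0.05 there were 2 members in controls and 1 in vehicle mice. DESeq2 called 1 in controls, where it called 7.51% of the genes it gave an adjusted p, and 0 in vehicle mice. The 1 was Xbp1, at 111.0 and 156.3 CPM in wild type and at 95.2 and 81.5 CPM in Hsf1-/- controls, with a log2 fold change of -0.60 (interval -0.99 to -0.21) and an adjusted p of 0.1 with edgeR. Among vehicle mice Xbp1 was at 101.3 and 95 against 88.9 and 98.2 CPM and overlapped. Hsph1, a cytosolic cochaperone, was lower in Hsf1-/- mice in both comparisons (log2 fold change -0.93 and -1.45), among 3 and 1 cytosolic chaperones called lower. Of 24 import and export genes tested, edgeR called 1 in controls, Sec61b (-1.45, adjusted p = 0.0028), and 0 in vehicle mice. The same 2 wild type control mice serve the R6/2 comparison, where Xbp1 (-0.81) and Sec61b (-1.59) were also called lower with TMM. The part of these 2 mice in both results was not tested. The wild type and Hsf1-/- control mice also differ in Y-linked counts.

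Members were compared with each other over the 24 libraries on log2(CPM + 0.5). These correlations describe libraries that share genotypes and treatments. Over the 45 pairs of members the median Pearson r was 0.19, from -0.80 for Pdia4 and Dnajb9 to 0.77 for Dnajb9 and Xbp1. Over the same libraries Hspa5 had an r of 0.70 with Dnajb9, of 0.68 with Xbp1 and of -0.53 with Pdia4. After the group means were taken off, the median r over the 45 pairs was 0.47, with 0.91 for Hsp90b1 and Dnajc3 and 0.87 for Hsp90b1 and Pdia3. Hspa5 then had an r of 0.45 with Dnajb9, of 0.70 with Xbp1 and of 0.48 with Pdia4, so that the sign turned for Pdia4. With 2 mice a group, each r after this step rests on 12 differences between mice. Among them is the R6/2 HS pair, in which 1 mouse was lower for all 10 members. That pair was at 12.5 and 27.3 CPM for Dnajc3 and at 120.5 and 191.8 CPM for Hsp90b1. Its weight in these r values was not tested. Without taking off group means, genes outside the members were ranked by their r with Hspa5. A mean of at least 10 CPM was found for 7503 genes, the members among them. The 5 closest outside the members were Slc38a3 (0.85), a glutamine transporter, Hr (0.84), a transcriptional corepressor, Rgcc (0.83), Mapkapk5 (0.82) and Manf (0.80). Manf encodes an ER-resident protein known to be induced by ER stress.

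Positions of the genes are given for the mm9 build that the reads were mapped to, from the GENCODE annotation of that build. Hspa5 lies at chr2:34627490-34632051, Pdia3 at chr2:121239511-121264423, Hsp90b1 at chr10:86152954-86168254 and Xbp1 at chr11:5420662-5425896. Pdia4 lies at chr6:47746141-47763511, Pdia6 at chr12:17273351-17291576, Dnajb9 at chr12:45306884-45311055 and Calr at chr8:87365749-87370833. Hyou1 lies at chr9:44187573-44200452 and Dnajc3 at chr14:119337154-119380924. The transcript of Dnajb9 has a copy at chrX:153978617-153979685, 94.4% identical over 53.4% of the transcript, so some reads of Dnajb9 may be uncertain. No such copy was found for the other 9 members. On the opposite strand, exons of Pdia3 overlap Catsper2, those of Pdia6 overlap Atp6v1c2 and those of Hsp90b1 overlap the long noncoding transcript 1810014B01Rik. On the same strand, exons of Hsp90b1 overlap an annotated miRNA and the processed transcript Gm15344, and those of Pdia4 overlap Mir704. The libraries were strand-specific, but whether counting used the strand is not given in the sources used here.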

How the data were processed

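Per the labels and methods, the authors made strand-specific paired-end libraries from polyA RNA, used Bowtie to map the reads to mm9, and deposited counts per gene that are not normalized, 1 column per mouse. The counting program and annotation are not given in the sources used here. Of 18669 Entrez genes, 18594 were matched to a symbol and 18203 to mm9 coordinates. All 24 libraries were used (22450177 to 46599238 counts). Between the 2 mice of a group, counts varied more than counting error (chi-square over its degrees of freedom 19.42 to 110.2). The labels do not say that mice came from separate litters, so p-values measure the spread between these mice.

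As in the study, a gene was kept if 10 or more libraries held at least 2 counts of it. Counts were scaled with TMM and fitted as 12 group means with the quasi-likelihood test of edgeR 4.0.16 (R 4.3.3) on 12 residual degrees of freedom, with Benjamini-Hochberg adjustment over the 13754 genes and a threshold of 0.05. Intervals are 95% intervals from the same fit. With 2 mice a group an exact permutation test of a single gene cannot go below p = 0.333, so none was used. The alternatives were DESeq2 1.42.0, scaling by RLE size factors or by library size only, no filter, a replicate block and leaving out each mouse. The procedure was tested on simulated data with planted changes larger than those of any member. That test does not show whether changes as small as the members' would be found. Comparisons numbered 17, and 1 average was added after values had been seen. Copies of transcripts were searched for in mm9 with minimap2 2.31-r1302. Exon length is the union of annotated exons.

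The members and the lists (ER folding, ER-associated degradation, ER import and export, sensors and processing factors of the unfolded protein response, ATF4 and CHOP arm, cytosolic chaperones and cell type markers) were chosen with earlier results of these data known. Named genes are the 10 members, Hsf1, Hspa1a and Dnajb1, up to 5 called genes of a list with the largest change, and the 5 genes most correlated with Hspa5. Hspa1b and Hsp90ab1, as the ends of a range, and the promoter windows were chosen after values were seen.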

Additional observations from a re-analysis of the deposited data

Results flagged for a closer look

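Responses to treatment differed between genotypes, by the test of the difference in edgeR, for genes outside the 10 ER chaperones and for 0 of the 10. For HS these tests called 0.0727% of all genes in R6/2 and 0.16% in Hsf1-/- mice. For HSP990 they called 0.0% in R6/2 and 0.422% in Hsf1-/- mice. At such shares, 0 of 10 does not set the ER chaperones apart. The HS response differed between R6/2 and wild type mice for 4 of 10 cytosolic chaperones and between Hsf1-/- and wild type mice for 6 of 10, all smaller than in wild type. The HSP990 response differed between Hsf1-/- and wild type mice for 9 of 10 cytosolic chaperones, all smaller, and for Serpinh1, the collagen chaperone of the ER, by -2.50 on the log2 scale. It also differed for 2 genes of the ATF4 and CHOP arm, Trib3 (5.32) and Sesn2 (3.69), which were larger in Hsf1-/- mice. The knockout mice were 8 or 10 weeks old and the wild type mice 12, and genotype and age cannot be told apart here. In the HS experiment the Y-linked counts summed to 4781 to 5365 in knockout and to 0 in wild type mice. There genotype and sex counted this way cannot be told apart either.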

How the results depend on the processing

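RLE size factors, no filter and the replicate block left every member on its side of the threshold in all 18 comparisons. Same-numbered mice did not deviate together (median correlation -0.0208 over 66 pairs of groups, 12 above 0.1 and 13 below -0.1), so the replicate block was not used for the results; with it 1 member was called after HSP990 in wild type and 2 in R6/2 control mice, as without it. DESeq2 called 1 member in Hsf1-/- against wild type control mice in place of 0. With library size only, 5 members were called in R6/2 control and 7 in R6/2 vehicle mice, in place of 2 each, where that scaling called 43.7% and 55.6% of all genes. The sign of these log2 fold changes turned under that scaling: in control mice Hsp90b1 (0.51), Pdia6 (0.08), Calr (0.50) and Hyou1 (0.47); in vehicle mice Pdia6 (0.43), Calr (0.55), Hyou1 (0.67) and Dnajc3 (0.63); and in the average Hspa5 (0.25), Pdia6 (0.26), Calr (0.53), Hyou1 (0.57), Dnajb9 (0.04), Dnajc3 (0.47) and Xbp1 (0.06). Signs counted as turned only where the member was called under at least 1 of the settings. Another 151 sign changes concerned members called under neither, 119 of them without 1 mouse, with log2 fold changes of up to 0.64 in size. Leaving out 1 mouse gave 0 to 0 members called after HSP990 in wild type, 0 to 2 in R6/2 control mice, 0 to 1 in R6/2 vehicle mice and 4 to 5 in the average; a group left with 1 mouse was assumed to vary like the other groups. With 2 mice a group, the 95% intervals limit what the treatment comparisons can show.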

Other observations

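Of the ATF4 and CHOP arm, edgeR called Cebpb (log2 fold change 1.93, adjusted p = 4.8e-05) and Ddit4 (5.71, adjusted p = 0.0047) higher after HS in wild type mice. Group means of both also rose in R6/2 (Cebpb 128.8 to 219.2, Ddit4 56.4 to 296.2 CPM). In Hsf1-/- mice they rose from 104.3 to 196.2 and from 38.1 to 231.8 CPM. In these 2 genotypes edgeR called neither, while DESeq2 called Cebpb in both and Atf3 in Hsf1-/- mice. Atf3 was at 19.7 and 7.33 CPM in Hsf1-/- controls and at 533.0 and 32.1 CPM after HS. Its rise thus rested mostly on 1 mouse. Ddit4 fell by 4.77 after HSP990 in R6/2 mice (adjusted p = 0.014), from 50.2 and 281.0 to 4.99 and 7.09 CPM. Its mean also fell, uncalled, in wild type (23.7 to 4.88 CPM) and Hsf1-/- mice (24.9 to 9.6 CPM). Cebpb encodes a transcription factor and Ddit4 an inhibitor of mTORC1 signaling, and both answer to several stimuli besides ER stress. Chac1, another gene of the list, was at 0 CPM in the mean of every group and was not tested.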
